A study of Mus musculus with 10 samples.

Results

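The 8 genes that encode inhibitors of cyclin-dependent kinases (CDKs) were compared between leukemic spleens of 2 groups of mice. Members were taken by gene symbol: the CIP/KIP genes Cdkn1a, Cdkn1b and Cdkn1c, the INK4 genes Cdkn2a, Cdkn2b, Cdkn2c and Cdkn2d, and Cdkn3. All 8 were among the 20813 genes of the deposited table, and no member was absent. All 8 were also among the 15276 genes with a mean normalized count of at least 10, to which the tests were applied. The animals were C57BL/6 mice, irradiated below the lethal dose and then injected with T-cell acute lymphoblastic leukemia (T-ALL) that carried a conditional Sirt1 allele. In 5 mice, labelled Sirt1 deleted, tamoxifen was given at 3 mg per mouse in corn oil, and 5 control mice received corn oil alone. Deletion and tamoxifen exposure divide the samples in the same way, so their parts cannot be told apart. Red cells were lysed before RNA isolation, and no sorting step is described, so host cells can remain beside the leukemia. The recombinase that acts on the Sirt1 allele, its driver, the ages of the mice, and whether each group derives from 1 leukemia or several are not given in the sources used here. The p-values therefore measure the spread between these samples only.

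CDKs drive the cell cycle when bound to cyclins, and CDK inhibitor proteins hold them back. CIP/KIP proteins (p21 from Cdkn1a, p27 from Cdkn1b, p57 from Cdkn1c) bind many cyclin-CDK complexes, CDK2 complexes above all, and p21 is the best known transcriptional target of p53. INK4 proteins (p16 from Cdkn2a, p15 from Cdkn2b, p18 from Cdkn2c, p19 from Cdkn2d) bind CDK4 and CDK6 and keep cyclin D from activating them. Cdkn2a also encodes ARF, which restrains MDM2 and so stabilizes p53, and the Cdkn2a and Cdkn2b locus is often deleted in human T-ALL. Cdkn3 is of another kind: its product, KAP, is a phosphatase that removes the activating phosphate from CDK2.

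The DNA before the start sites of Cdkn1a is shown first, because Cdkn1a was the member whose level differed between the groups, and Cdkn1b is shown beside it as the CIP/KIP gene with the highest level per kilobase. The downstream start lies inside the gene, where the antisense gene AC167363.2 has an exon. The sequences are the 250 bases before a RefSeq start, on the plus strand of GRCm38, the assembly that mm10 names. The search used a p53 consensus (a 10-base motif and its copy, joined without a spacer, with at most 1 mismatch outside the cores), the TATA motif TATAA, the GC box GGGCGG and the E-box CACGTG on both strands. Capitals mark the p53 match in the first sequence, and the TATA and GC box matches in the others; none of the marked matches overlaps another. The upstream window also has a TATAA match 227 bases before its start, left in lower case.
Cdkn1a, upstream start, chr17:29090729-29090978: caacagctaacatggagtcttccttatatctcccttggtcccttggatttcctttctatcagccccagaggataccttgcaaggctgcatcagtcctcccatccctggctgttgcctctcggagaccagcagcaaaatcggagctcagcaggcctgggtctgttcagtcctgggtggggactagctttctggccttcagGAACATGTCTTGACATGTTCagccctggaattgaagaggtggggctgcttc
Cdkn1a, downstream start, chr17:29093519-29093768: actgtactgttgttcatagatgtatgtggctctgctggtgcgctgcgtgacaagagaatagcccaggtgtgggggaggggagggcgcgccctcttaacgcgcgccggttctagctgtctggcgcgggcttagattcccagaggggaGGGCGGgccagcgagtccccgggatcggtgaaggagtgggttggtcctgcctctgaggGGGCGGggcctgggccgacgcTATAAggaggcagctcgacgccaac
Cdkn1b, chr6:134920151-134920400: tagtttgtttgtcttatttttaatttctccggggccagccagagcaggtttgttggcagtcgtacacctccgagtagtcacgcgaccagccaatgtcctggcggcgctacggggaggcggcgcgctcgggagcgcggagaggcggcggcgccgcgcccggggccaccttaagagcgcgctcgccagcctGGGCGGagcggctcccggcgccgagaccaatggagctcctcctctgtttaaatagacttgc
The 20 bases that match the p53 consensus, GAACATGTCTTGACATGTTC at chr17:29090928-29090947 with 1 mismatch, begin 51 bases before the upstream start of Cdkn1a and 2841 bases before the downstream start. Of 32851 windows of this length in the RefSeq table, 15 (0.0457%) hold such a match. The windows that the table holds for Cdkn1b, Cdkn2a, Cdkn2b, Cdkn2c, Cdkn2d and Cdkn3 gave no match to it. Promoter motifs of general use were more common: TATAA occurs in 22.8% of windows, GGGCGG in 32.7% and CACGTG in 6.02%. The downstream start of Cdkn1a has TATAA 25 bases before it and 2 GC boxes further up, and the Cdkn1b start has a GC box at 61 bases. A match is a description of the letters and not a site shown to be bound. The 15 windows belong to 15 genes, of which 4 were tested here. Among them Cdkn1a and Rps27l were higher with the deletion label, while Calhm2 and Sptbn4 did not pass the threshold (log2 differences 0.11 and 0.45, limma adjusted p = 0.276 and 0.574). Over all tested genes 16.8% were called higher. The Cdkn1a sequence was shown because that gene had risen, and with 4 genes nothing is read from this count about the match. Rps27l, which encodes a ribosomal protein S27 paralog, had 4411 ± 303 normalized counts in controls and 5813 ± 345 with the deletion label (SD over 5 samples; a rise of 0.40 on the log2 scale, limma adjusted p = 7.36e-04).

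Values are the authors' normalized counts, with a total of 33.7 M to 34.5 M (M, mega) in each of the 10 samples. The spacing of low values puts the reads counted to genes near 31.1 M to 37.6 M. This is a rough figure, because only 61.9% to 73.7% of low values came near whole multiples of that spacing. Sirt1 itself had a mean of 1810.5 ± 62.5 in controls against 1873 ± 146 in the samples labelled Sirt1 deleted (SD over 5 samples; log2 difference 0.05, 95% interval -0.08 to 0.17, limma adjusted p = 0.568). Which part of the gene the conditional allele removes is not given in the sources used here, so this gene-level value does not check the label. The T lineage list of 16 genes held members of very different level, from Cd7, with a mean of 77.2 over the 10 samples, upward. Among its abundant members, Lck had control and deletion-label means of 28587 ± 1338 and 31393 ± 2158, and Cd3e of 12238 ± 483 and 11998 ± 1695 (SD, n = 5 each). Lck and Cd3e did not pass the limma threshold (adjusted p = 0.0743 and 0.743). Thy1 was higher, at 53217 ± 3677 in controls and 79592 ± 17084 with the deletion label (log2 difference 0.56, limma adjusted p = 0.00510). On this list 3 of 16 genes were higher and 4 lower, against 16.8% and 19.4% of all tested genes. The labelled Sirt1-deleted samples were not uniform. Summed proliferation markers were 249914, 261838 and 257361 normalized counts in replicates 7, 8 and 12, below every control (278840 to 310059), but 298307 and 298556 in replicates 10 and 11, inside the control range. Ptcra, the pre-T-cell receptor gene, set the same 2 libraries apart, at 1171 and 1157 against 278 to 351 in the other 3 and 488 to 668 in controls. Results were therefore also computed without replicates 10 and 11, and they are given where the call ended or began or the value of a called gene moved by over 1.5 times. Because these replicates were set apart by values of the same data, fits without both are a description. They add no support to a call.

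Of the 8 CDK inhibitor genes, 1 rose and 0 fell (limma on log2(value + 1), Benjamini-Hochberg adjusted p under 0.05). Over all tested genes 36.1% passed the same test, 16.8% as higher and 19.4% as lower. The members' share, 12.5%, was thus below that of tested genes in general, and nothing is read from it about the family as a group. The median log2 difference was 0.03 over the members and -0.00014 over all tested genes. The member that rose was Cdkn1a. Its values did not overlap between the groups, as was the case for 24.0% of tested genes. Ranked by log2 difference, Cdkn1a took place 126 among the 15276 tested genes.

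**Figure D1:**
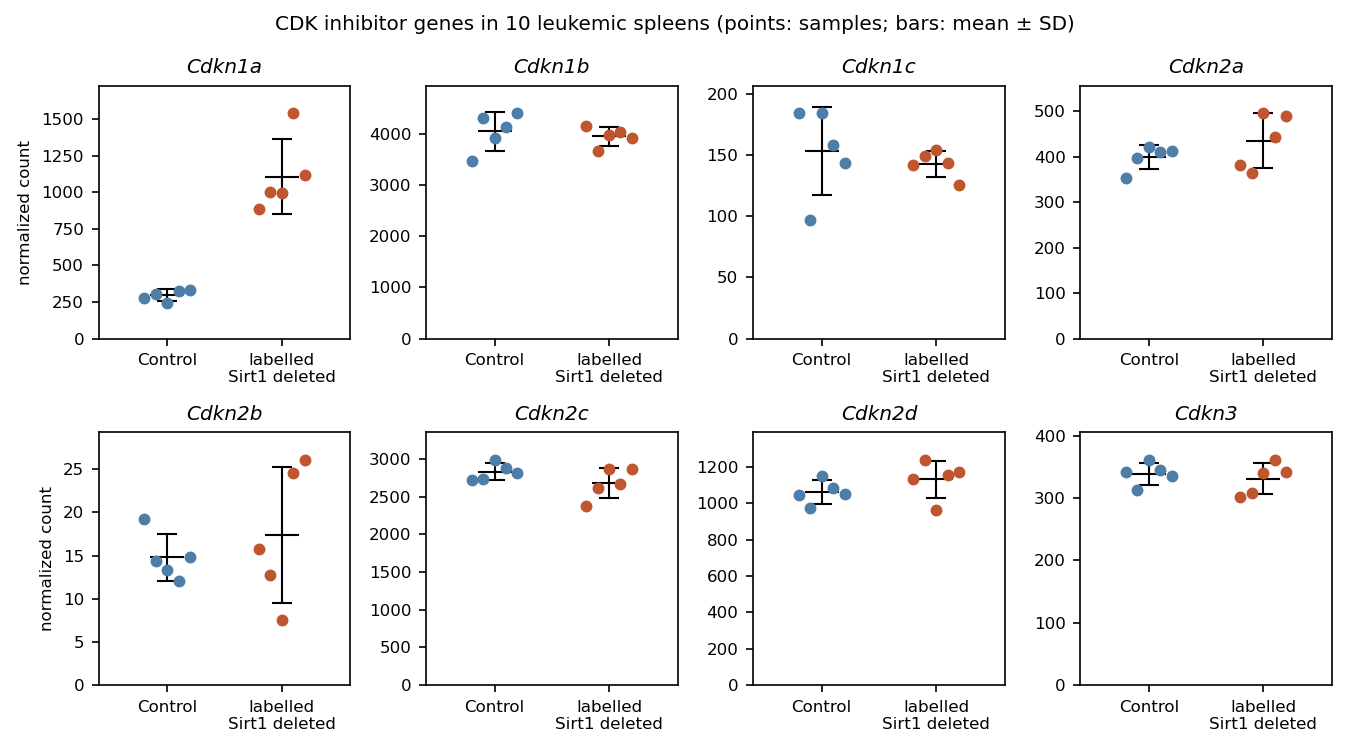
Normalized counts of the 8 CDK inhibitor genes, 1 panel per gene with its own linear axis from 0, with 1 point per sample and the mean ± SD of 5 samples per group. Cdkn1a lies between 242 and 335 in controls and between 888 and 1542 in labelled Sirt1-deleted samples, while the groups overlap for every other member.

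Cdkn1a (ENSMUSG00000023067.14, chromosome 17, 29090976 to 29100727, plus strand) encodes p21. In control replicates 2, 3, 4, 5 and 6 it measured 276, 307, 242, 326 and 335 normalized counts. In labelled Sirt1-deleted replicates 7, 8, 10, 11 and 12 it measured 888, 1001, 992, 1542 and 1117. Every labelled Sirt1-deleted sample lay above every control, and replicate 11 stood highest. The means were 1108 ± 256 and 297 ± 38.3 (SD, n = 5 each), a ratio of 3.73. On the log2 scale the difference was 1.88 (SE 0.14, 95% interval 1.58 to 2.18; limma adjusted p = 3.52e-05), and the exact two-sided permutation p was 0.00794, the smallest that 5 against 5 samples can give. In fold terms the interval runs from 2.98 to 4.53. The difference was 1.75 without replicate 11 and again 1.75 without replicates 10 and 11 together. The annotation places the antisense gene AC167363.2 across part of Cdkn1a. The overlap is one of gene spans, and shared exon bases were not compared. The libraries were strand-specific, but how strand entered the quantification is not given in the sources used here. Whether reads of that gene entered the Cdkn1a value is therefore not known.

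Markers of myeloid cells were higher in the same group as Cdkn1a. Neutrophil markers rose for 13 of 14 genes and macrophage and monocyte markers for 14 of 16 (limma adjusted p under 0.05), against 16.8% of all tested genes. The summed neutrophil markers ranged from 28810 to 98569 normalized counts in labelled Sirt1-deleted samples and from 9118 to 12596 in controls, and the macrophage and monocyte markers from 7598 to 14707 and from 3695 to 4219. None of the genes on either list was at 0 in every control. Within the labelled Sirt1-deleted group the order of the samples differed between these sums and Cdkn1a. Replicate 8 had the highest neutrophil sum, 98569, with Cdkn1a at 1001, and replicate 10 the lowest, 28810, with Cdkn1a at 992. Replicate 11, the highest for Cdkn1a, had a neutrophil sum of 39439. The part of myeloid cells in the Cdkn1a difference was not tested. In bulk RNA of this kind, a change in the number of cells of a type and a change in RNA per cell cannot be told apart. The summed T lineage markers overlapped between the groups, at 279793 to 298504 and 276138 to 288187, and 3 of 16 were higher and 4 lower.

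**Figure D2:**
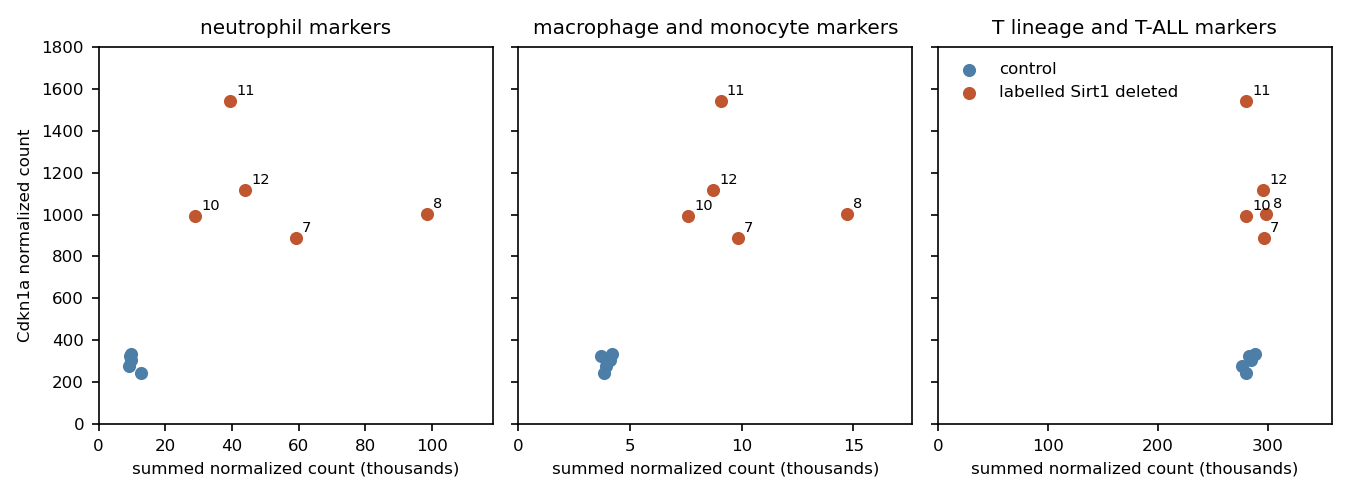
Cdkn1a normalized count (vertical axis) against the summed normalized count (divided by 1000 on the axis) of neutrophil, macrophage and monocyte, and T lineage marker genes in the same 10 samples, with labelled Sirt1-deleted replicates numbered. Both myeloid sums separate the groups as Cdkn1a does. Replicate 11 has the highest Cdkn1a at a neutrophil sum of 39439, and replicate 8 the highest sum at a Cdkn1a of 1001. The part of myeloid cells in the Cdkn1a difference was not tested.

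Cdkn1b (ENSMUSG00000003031.14, chromosome 6, 134920401 to 134925513, plus strand) encodes p27, which holds resting lymphocytes out of cycle. Per kilobase of transcript it was the most abundant CIP/KIP gene in every sample. It measured 3466, 4306, 3924, 4139 and 4409 normalized counts in control replicates 2 to 6. The labelled Sirt1-deleted replicates 7, 8, 10, 11 and 12 measured 4166, 3669, 3971, 4048 and 3927, all within the control range. Its log2 difference came to -0.03 (SE 0.07; limma adjusted p = 0.755, exact permutation p = 0.698), with a fold interval from 0.888 to 1.08. An increase of the size seen for Cdkn1a lies outside this interval. Its sign turned under both rescalings, to 0.03 with upper quartiles and 0.02 with quantiles, so no direction is given.

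Cdkn1c (ENSMUSG00000037664.13, chromosome 7, 143458339 to 143461050, minus strand) encodes p57 and is an imprinted gene. Control replicates 2 to 6 measured 184, 96.8, 184, 158 and 144 normalized counts, and labelled Sirt1-deleted replicates 7, 8, 10, 11 and 12 measured 142, 149, 154, 144 and 126. The labelled Sirt1-deleted samples all lay inside the wider control range, where replicate 3 was lowest. The log2 difference was -0.07 (SE 0.17, 95% interval -0.43 to 0.29; limma adjusted p = 0.779, exact permutation p = 0.754). The antisense gene Gm44732 overlaps Cdkn1c in the annotation, with the same limit as above.

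Cdkn1a was then set against each of the other members within the same sample, which cancels the scaling of the samples. The log2 ratio of Cdkn1a to Cdkn1b rose by 1.91, from -3.77 ± 0.15 in controls to -1.86 ± 0.31 with the deletion label (SD, n = 5 each). For the 7 ratios the change ran from 1.76, against Cdkn2a, to 1.96, against Cdkn2c. In each ratio every labelled Sirt1-deleted sample exceeded every control. The 7 ratios share the Cdkn1a values, and Cdkn1a was set over the others because it had risen, so they are given as a description with no test.

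**Figure D3:**
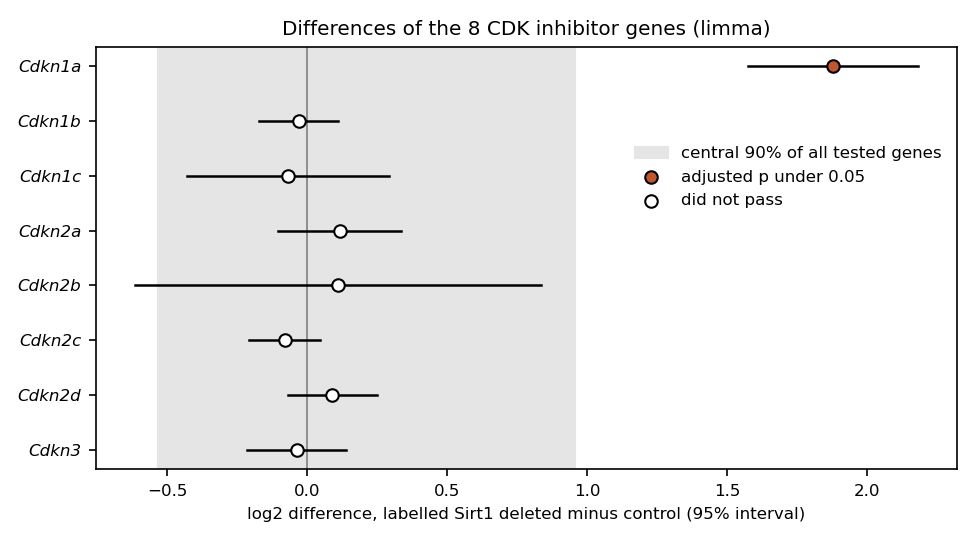
Log2 difference of each CDK inhibitor gene (labelled Sirt1 deleted minus control, on the log2(value + 1) scale) with its 95% interval from limma over 5 samples per group, and in grey the range that holds the central 90% of all tested genes. Cdkn1a lies at 1.88, and the intervals of the other 7 members include 0.

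Per kilobase of the longest coding transcript in GENCODE M21, Cdkn1a accounted for 35.8% ± 4.94 of the CIP/KIP sum with the deletion label, against 12.8% ± 1.15 in controls (SD, n = 5 each). From control to labelled Sirt1-deleted samples, the share of Cdkn1b went from 79.8% ± 2.10 to 59.1% ± 4.54 and that of Cdkn1c from 7.34% ± 2.13 to 5.12% ± 0.621. Cdkn1b thus remained the main CIP/KIP transcript in both groups on this scale. The CIP/KIP sum was 1113 ± 82.4 per kilobase in controls and 1477 ± 133 in labelled Sirt1-deleted samples, with ranges of 991 to 1205 and 1365 to 1706. The INK4 sum was 2349 ± 107 and 2381 ± 127, with ranges that overlap. These sums are descriptions and were not tested.

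**Figure D4:**
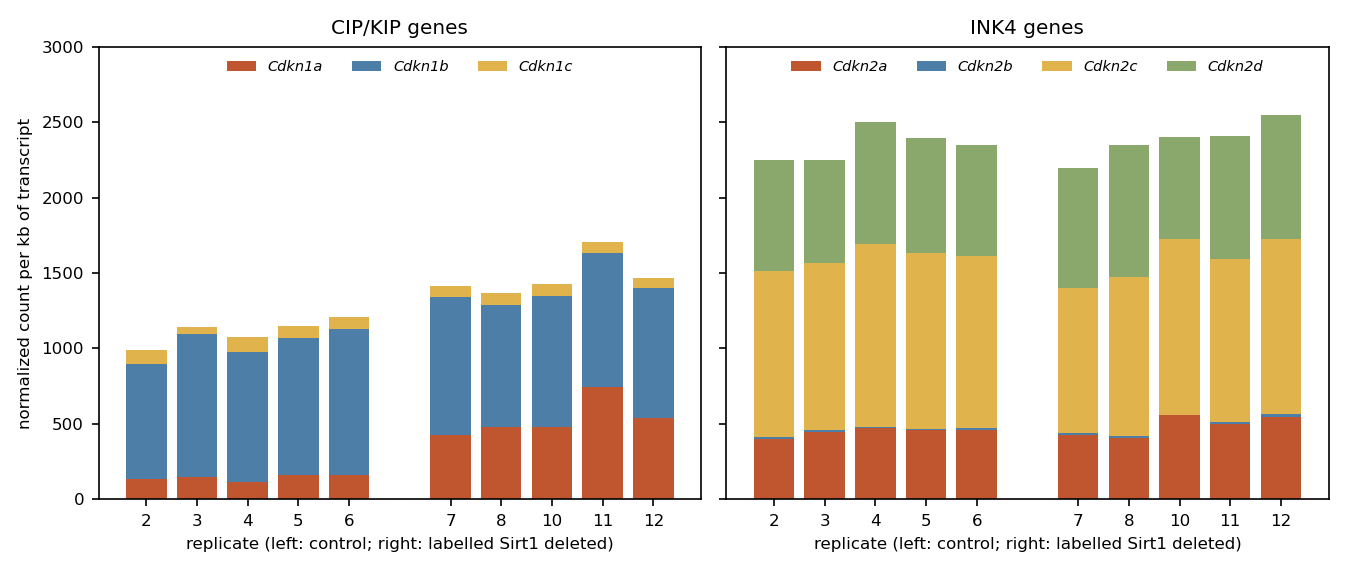
Stacked normalized counts per kilobase of the longest coding transcript for the CIP/KIP genes (left) and the INK4 genes (right) in each of the 10 samples, from 0 on a shared axis. The Cdkn1a segment is larger in the labelled Sirt1-deleted samples, and the INK4 bars of the groups overlap in height.

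Among the INK4 genes, 0 of 4 passed the limma threshold, 0 had an unadjusted p under 0.05, and 0 passed the exact rank-sum test. The intervals limit how large a difference these data would have left unseen. Cdkn2a (ENSMUSG00000044303.6, chromosome 4, 89274471 to 89294653, minus strand) has 2 coding transcripts that start from separate first exons, 1 for p16 and 1 for ARF. The deposited value is 1 number per gene, so these products are not separated. Cdkn2a measured 354, 398, 421, 409.8 and 412 normalized counts in control replicates 2 to 6. It measured 381, 365, 497, 443 and 490.4 in labelled Sirt1-deleted replicates 7, 8, 10, 11 and 12, of which 3 exceeded every control. On the log2 scale the difference was 0.12 (SE 0.10; limma adjusted p = 0.391, exact permutation p = 0.278), with a fold interval from 0.931 to 1.26.

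Cdkn2b (ENSMUSG00000073802.5, chromosome 4, 89306299 to 89311039, minus strand), which encodes p15 and lies next to Cdkn2a, was near the floor of the tested range. Control replicates 2 to 6 measured 19.3, 14.4, 13.3, 12.1 and 14.8 normalized counts. Labelled Sirt1-deleted replicates 7, 8, 10, 11 and 12 measured 15.8, 12.7, 7.52, 24.6 and 26.1. Replicates 11 and 12 exceeded every control and replicate 10 lay below every control. The coefficient of variation was 45.5% in the labelled Sirt1-deleted samples, the largest of any member in either group. The fold interval, from 0.653 to 1.79, was correspondingly the widest (log2 difference 0.11, SE 0.33; limma adjusted p = 0.825, exact permutation p = 0.738). Its log2 difference came to -0.04 without replicate 11, -0.06 without replicate 12 and -0.20 after quantile normalization, so Cdkn2b has no direction in these data. Mtap, the enzyme gene on the other side of Cdkn2a, did not pass (labelled Sirt1 deleted 6143 ± 710 and control 6676 ± 233, SD, n = 5 each; log2 difference -0.13, limma adjusted p = 0.176). It was called lower without replicate 10 and without replicates 10 and 11 together. In replicates 7, 8 and 12 it measured 5521, 6119 and 5391, below every control (6449 to 7058). Dmrta1, next to Cdkn2b, was too low to be tested.

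Cdkn2c (ENSMUSG00000028551.14, chromosome 4, 109660876 to 109667189, minus strand) encodes p18, an INK4 protein of developing lymphocytes. It measured 2724, 2743, 2995, 2887 and 2815 normalized counts in control replicates 2 to 6 and 2383, 2617, 2873, 2676 and 2869.7 in labelled Sirt1-deleted replicates 7, 8, 10, 11 and 12. Replicates 7, 8 and 11 lay below every control, and the others inside the control range. The log2 difference was -0.08 (SE 0.06; limma adjusted p = 0.297, exact permutation p = 0.198), with a fold interval from 0.867 to 1.03.

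Cdkn2d (ENSMUSG00000096472.2, chromosome 9, 21288410 to 21291407, minus strand) encodes the p19 protein of the INK4 family, which is distinct from ARF. It measured 1048, 975, 1153, 1086 and 1051 normalized counts in control replicates 2 to 6 and 1133.5, 1242, 964, 1154 and 1172 in labelled Sirt1-deleted replicates 7, 8, 10, 11 and 12. Replicates 8, 11 and 12 lay above every control and replicate 10 below. On the log2 scale the difference was 0.09 (SE 0.07; limma adjusted p = 0.358, exact permutation p = 0.278), with a fold interval from 0.953 to 1.19.

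Cdkn3 (ENSMUSG00000037628.10, chromosome 14, 46760541 to 46771669, plus strand) is a gene of dividing cells. It measured 343, 312, 361, 344 and 335 normalized counts in control replicates 2 to 6 and 302, 308, 340.4, 362 and 341 in labelled Sirt1-deleted replicates 7, 8, 10, 11 and 12. The groups overlapped, with replicates 7 and 8 below every control and replicate 11 above. Its log2 difference came to -0.04 (SE 0.08; limma adjusted p = 0.755, exact permutation p = 0.524), with a fold interval from 0.862 to 1.10. Its sign turned to 0.02 with upper-quartile rescaling.

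The order of the members' levels per kilobase was Cdkn2c, Cdkn1b, Cdkn2d, Cdkn2a, Cdkn3, Cdkn1a, Cdkn1c and Cdkn2b in controls. The highest was at 1146 ± 45.0 and the lowest at 10.6 ± 1.96 normalized counts per kilobase (SD, n = 5 each). Cdkn1b and Cdkn2d overlapped in range, as did Cdkn3 and Cdkn1a, so the order within each of these pairs is not fixed by the data. In labelled Sirt1-deleted samples Cdkn1a stood 4th, at 533 ± 123, between Cdkn2d at 796 ± 72.2 and Cdkn2a at 486 ± 67.8. The range of Cdkn1a overlapped with both. The other members kept their order relative to each other. Use of the shortest coding transcript in place of the longest gave the same ranks in both groups.

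The genes on which CDK inhibitors act, and those that control them, were compared from lists of 8 kinds, which hold 96 tested genes. Of these 23 were higher and 27 lower. Their share, 52.1%, stands beside 36.1% of all tested genes. The lists were chosen with earlier results of these data known, so their counts are a description. For each count below, the shares of all tested genes called higher and lower were 16.8% and 19.4%. The scaling bears on direction here: as deposited, 46.4% of all called genes were higher, and upper-quartile rescaling made this 58.2%. With the exact rank-sum test, which here called the genes whose groups do not overlap, the calls of Cdk6, Ccnb1, Wee1, Sp1 and Mki67 also ended. The myeloid marker sums given above separate the same groups, and their part in these lists was not tested. Proliferation markers were higher for 3 of 24 genes and lower for 10. Mki67, the Ki-67 gene of cycling cells, had means of 37689 ± 2602 in controls and 32103 ± 3103 with the deletion label (SD, n = 5 each; log2 difference -0.23, limma adjusted p = 0.0203), and its call was lost without labelled Sirt1-deleted replicate 7 or 8 or control replicate 5 (leave-one-out range -0.27 to -0.20).

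Of the 5 cell cycle CDK genes, 1 was lower and 0 were higher, and the median log2 difference was -0.03. A share of 1 in 5 called lower is near the 19.4% of all tested genes. Cdk6, the D-cyclin partner that INK4 proteins bind, fell from 15513 ± 1268 to 12920 ± 994 (means ± SD of 5 samples; difference on the log2 scale -0.26, limma adjusted p = 0.0101). Cdk4, its close relative, had 13805 ± 813 in controls against 14540 ± 462 after tamoxifen (log2 difference 0.08, limma adjusted p = 0.229). Cdk2, the main target of p21 and p27, measured 5621 ± 199.5 in controls and 5632 ± 126 with the deletion label (log2 difference 0.00, 95% interval -0.08 to 0.09, limma adjusted p = 0.962).

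Of 9 tested cyclins, 1 was higher and 4 were lower, with a median log2 difference of -0.18. Ccnd3, the D cyclin on which immature T cells and T-ALL depend, rose from 7499 ± 727 to 10871 ± 848 (means ± SD of 5 samples; difference on the log2 scale 0.54, limma adjusted p = 5.05e-04), with no overlap. Ccnd2 did not pass, with controls at 3202 ± 404 and labelled Sirt1-deleted samples at 3658 ± 759 (log2 difference 0.17, limma adjusted p = 0.324), but was called higher without replicates 10 and 11 together (0.36). Ccnb1, the mitotic cyclin, fell from 8824 ± 765 to 6105 ± 1468 (log2 difference -0.56, limma adjusted p = 0.00766). Ccnb2, Ccne2 and Ccnd1 were lower by less (log2 differences -0.24, -0.22 and -0.18). These calls are fragile. That of Ccne2 ended at a minimum mean of 1 and with no filter. Each of the 3 ended under both rescalings, in limma without the trend and in the exact rank-sum test. Each also ended in 7 of the 10 fits that left out 1 sample. For Ccnb2 these were the fits without labelled Sirt1-deleted replicate 7, 8 or 12 or control replicate 2, 3, 4 or 5 (range -0.30 to -0.18). For Ccne2 they were those without replicate 7, 8 or 12 or control replicate 2, 3, 5 or 6 (range -0.27 to -0.18), and for Ccnd1 those without replicate 7 or 12 or any 1 control (range -0.22 to -0.13). Without replicates 10 and 11 together, the differences were -0.38 for Ccnb2 and -0.32 for Ccne2. Those replicates were set apart by proliferation markers of the same data, so this adds no support to the calls. The count of lower cyclins was 1 under both rescalings and from 1 to 5 over the 10 fits, and the exact rank-sum test called 1 cyclin, Ccnd3, which was higher.

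Of 13 genes of the RB pocket proteins and the E2F factors they hold in check, 1 was higher and 5 were lower (median log2 difference -0.10). Tfdp2, a DNA-binding partner of E2F, fell from 2309 ± 440.2 to 1526 ± 250.3 (means ± SD of 5 samples; difference on the log2 scale -0.59, limma adjusted p = 0.00460). Rbl1, which encodes p107, fell by 0.27 and E2f6, a repressor, by 0.30 on the log2 scale (limma adjusted p = 0.00313 and 0.00462). Rb1 was lower by a log2 difference of -0.38 (limma adjusted p = 0.0411) and E2f7 higher by 0.30 (limma adjusted p = 0.0464). Both calls ended with quantile normalization, in limma without the trend and in the exact rank-sum test. That of Rb1 also ended with upper-quartile rescaling. The call of E2f7 ended at a minimum mean of 1, with no filter and with sample weights as well. Both ended without labelled Sirt1-deleted replicate 7, 8 or 12. That of Rb1 also ended without control replicate 2, 3, 5 or 6 (range over the 10 fits that leave out 1 sample -0.46 to -0.29), and that of E2f7 without control replicate 2, 3, 4 or 6 (range 0.23 to 0.37). Without replicates 10 and 11 together the difference of Rb1 was -0.60, with the same limit as for the cyclins. The count of lower genes ran from 3 to 6 over the fits without 1 sample and was 4 with upper-quartile rescaling and 3 with quantile normalization.

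CDK tyrosine kinases and phosphatases, which brake and release CDK1 and CDK2, were lower for 3 of 5 genes and higher for 0 of 5. Wee1, the inhibitory kinase, fell from 2386 ± 89.0 to 1871 ± 253 (means ± SD of 5 samples; difference on the log2 scale -0.36, limma adjusted p = 0.00511). Of the CDC25 phosphatases, which oppose it, Cdc25c fell by 0.34 and Cdc25b by 0.26 on the log2 scale (limma adjusted p = 0.0127 and 0.00119). Cdc25a did not pass, with 4878 ± 155 in controls and 4988 ± 199.5 with the deletion label (log2 difference 0.03, limma adjusted p = 0.595).

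The list of genes for turnover of p21 and p27 protein had 2 higher and 3 lower of 13. Rbx1, the RING subunit of cullin ligases, rose from 3150 ± 248 to 4450 ± 577, and Cks1b, the cofactor with which SKP2 recognizes p27, from 4916 ± 313 to 6096 ± 487 (SD, n = 5 each; log2 differences 0.49 and 0.31, limma adjusted p = 0.00127 and 0.00318). Ddb1, an adaptor of the CUL4 ligase that degrades p21 in S phase, fell by 0.40, and Fzr1, an activator of the anaphase-promoting complex, by 0.33 on the log2 scale (limma adjusted p = 0.00473 and 0.0105). Skp2 was lower, at 2682 ± 416 against 3162 ± 179 (log2 difference -0.25, limma adjusted p = 0.0480). This call ended under both rescalings, at a minimum mean of 1, with no filter, in limma without the trend and in the exact rank-sum test. It also ended without labelled Sirt1-deleted replicate 7, 8 or 12 or any 1 control (range -0.32 to -0.20). Without replicates 10 and 11 together the difference of Skp2 was -0.40, with the same limit as for the cyclins. The count of lower genes was 5 without labelled Sirt1-deleted replicate 10.

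Among 21 tested regulators of CDK inhibitor transcription, 1 was higher and 9 were lower (median log2 difference -0.16), and under both rescalings 2 were higher and 6 lower. Trp53 encodes p53, the activator of Cdkn1a. It measured 9837, 8993, 8974, 9295 and 9382 normalized counts in control replicates 2 to 6 and 7186, 8090, 8481, 8309 and 5831 in labelled Sirt1-deleted replicates 7, 8, 10, 11 and 12. Every labelled Sirt1-deleted sample lay below every control, in the direction opposite to Cdkn1a (log2 difference -0.31, 95% interval -0.50 to -0.12, limma adjusted p = 0.0176). These are transcript values and say nothing of the p53 protein or its acetylation, on which SIRT1 is known to act. A lack of overlap was not particular to Trp53: it held for 7 of the 21 tested regulators and for 24.0% of all tested genes. Ets1, a lymphoid transcription factor, fell from 34181 ± 944 to 25600 ± 1528 (means ± SD of 5 samples; difference on the log2 scale -0.42, limma adjusted p = 2.29e-04). Bmi1, a polycomb protein known for silencing Cdkn2a, fell by 0.30, and Sp1, which binds GC boxes, fell by 0.28 on the log2 scale (limma adjusted p = 0.00915 and 0.0144). Ezh2, the polycomb methyltransferase, was the gene of the list that rose, by 0.30 (limma adjusted p = 0.00738), while Cdkn2a and Cdkn2b did not pass.

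Other genes known as p53 targets, from a list that excludes Cdkn1a, were higher for 18 of 29 tested genes and lower for 2. Over all tested genes 16.8% were called higher and 19.4% lower. The median log2 difference of the list was 0.32, against -0.00014 over all tested genes. Because the list was chosen with earlier results of these data known, these figures are a description. Phlda3, an inhibitor of AKT signalling, stood at 275 ± 33.6 in controls and at 728 ± 109 in labelled Sirt1-deleted samples (SD, n = 5 each; log2 difference 1.40, limma adjusted p = 3.52e-05). Perp, a membrane protein gene, rose from the low level of 11.2 ± 1.78 to 32.2 ± 6.43 (log2 difference 1.43, limma adjusted p = 0.00115). Bbc3, which encodes the apoptosis inducer PUMA, rose from 461 ± 31.2 to 902 ± 118, and Plk2, a polo-like kinase, from 241 ± 33.0 to 464 ± 53.7 (log2 differences 0.96 and 0.94, limma adjusted p = 1.04e-04 and 2.66e-04). Ccng1, which encodes cyclin G1, and Mdm2, the ligase that degrades p53, rose by less, from 4110 ± 192 to 5596 ± 613 and from 3186 ± 203 to 3737 ± 146 (log2 differences 0.44 and 0.23, limma adjusted p = 9.58e-04 and 0.00593). None of these 6 genes overlapped between the groups, as was the case for 18 of the 29 tested genes of the list and 24.0% of all tested genes. Phlda3, Perp, Bbc3 and Plk2 were named for the size of their rise, so nothing further is read from their lack of overlap. The difference of Cdkn1a, 1.88, lay above the highest of the list, 1.43. The genes that fell were Trp53i11 and Rrm2b, a ribonucleotide reductase subunit (log2 differences -0.32 and -0.27, limma adjusted p = 0.00213 and 0.0251). The call of Rrm2b ended without labelled Sirt1-deleted replicate 7, without control replicate 2 and with upper-quartile rescaling (-0.23, -0.21 and -0.21). Of the 22 listed targets with a promoter entry, 0 had the p53 match within 250 bases before a start, a window that leaves out introns and distant sites.

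**Figure D5:**
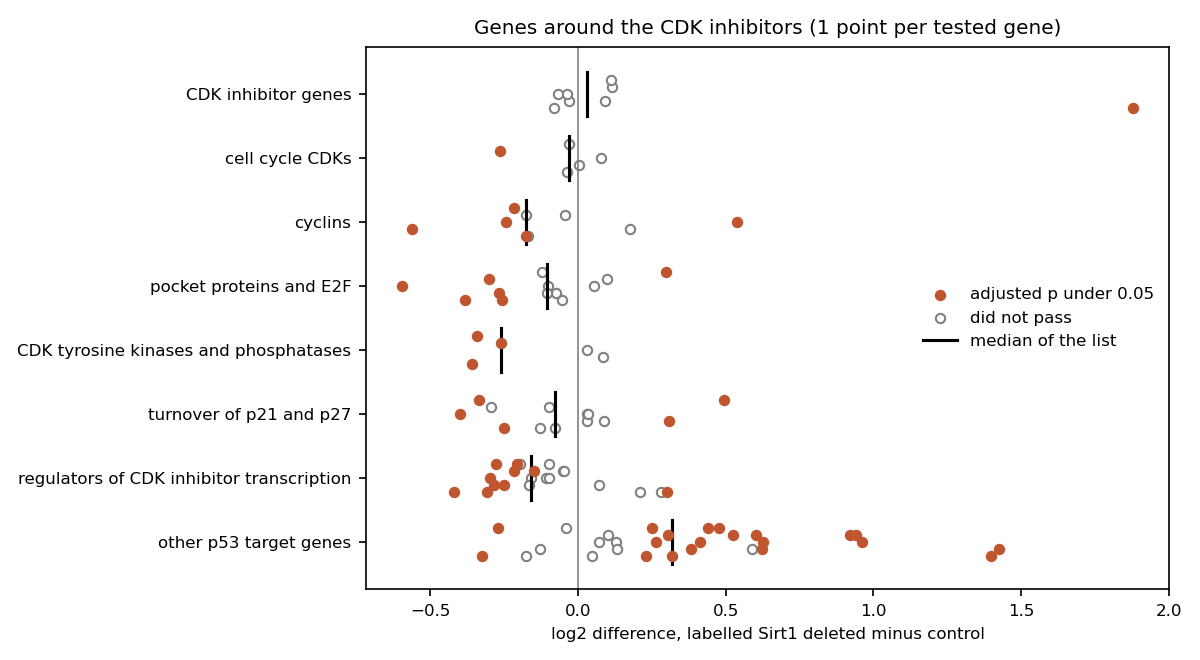
Log2 difference of each tested gene (1 point) in the CDK inhibitor family and in 7 of the lists around it, labelled Sirt1 deleted minus control, with filled points for limma adjusted p under 0.05 and a black line at each list's median. The p53 target list has its median at 0.32, while the medians of the other lists lie between -0.26 and 0.03.

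The remaining marker lists gave no call for B cells (0 of 10 by limma, 2 at an unadjusted p under 0.05, 0 by the exact rank-sum test) or erythroid cells (0 of 10, 1 and 0). The summed B cell markers ranged from 19664 to 27166 normalized counts in labelled Sirt1-deleted samples and from 18234 to 21449 in controls. The erythroid sums ranged more widely, from 39298 to 160448 and from 42836 to 134243. Stromal and endothelial markers were lower for 2 of 7 tested genes, against 19.4% of all tested genes, and 0 passed the exact rank-sum test. Their median log2 difference was -0.04. The sums, over 11 genes, were 4976 to 5479 and 5739 to 6677, although 6 of these genes had the higher mean with the deletion label. The stromal and endothelial sums do not overlap, and their part in the members' values was not tested.

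After the mean of each group was taken off, the genes most like each member over the 10 samples were found among 10752 genes with a mean of at least 100, as a description. For Cdkn1a they were Praf2, Xpnpep3 and Polr2g (Pearson r 0.971, 0.952 and 0.931). For Cdkn1b they were Cdk8, Rtraf and Acyp1 (r 0.970, 0.932 and 0.931), and for Cdkn1c Aggf1, Trim13 and Eno3 (r 0.950, 0.935 and 0.923). The INK4 genes had Vegfb, Camta1 and Tk1 for Cdkn2a (r 0.950, 0.946 and 0.945) and Nfkbia, Rb1cc1 and Zfand3 for Cdkn2b (r 0.945, 0.920 and 0.908). Mrpl14, Hacl1 and Gdpd1 stood nearest to Cdkn2c (r 0.949, 0.909 and 0.903), and Ltk, Litaf and Snn to Cdkn2d (r 0.954, 0.941 and 0.911). Cdkn3 was followed by D5Ertd579e, Ap4b1 and Per2 (r 0.947, 0.926 and 0.918). Each r is among the highest of 10752 genes over 10 samples that share their library scaling, and no 2 members had a nearest gene in common.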

How the data were processed

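Bulk RNA sequencing was done on 10 leukemic spleens from strand-specific libraries of total RNA, per the labels. The authors deposited 1 table of normalized counts per gene (a signal on a linear scale, not whole reads). The submitters' processing notes name kallisto 0.44.0, DESeq and mm10; the role of each, the annotation and the strand setting are not given in the sources used here. In low values 61.9% to 73.7% came within 0.1 reads of whole multiples, so reads were not recovered and no count model was run.

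Values plus 1 were put on the log2 scale, genes with a mean of at least 10 were kept, and the groups were compared with limma 3.58.1 (intensity trend, R 4.3.3) and Benjamini-Hochberg adjustment over all 15276 genes at 0.05. Single values used exact permutation tests in Python 3.11.15. No column lay outside the 10 samples. Levels per kilobase and gene positions come from GENCODE M21 (GRCm38), promoters from RefSeq (GRCm38.p6; entries for 7 of the 8 members). The members and lists were chosen with earlier results of these data known. Named were the members, up to 4 passing genes in each direction per list, 12 fixed pathway genes, Sirt1 and the 3 genes most like each member. Cd3e, Cd7, Lck, Thy1, Ptcra, Cdc25a, Rps27l, Calhm2 and Sptbn4 were named after their values were seen. Pseudocounts of 0.1 and 5, minimum means of 1 and 50, no filter, upper-quartile and quantile rescaling, limma with sample weights or no trend, fits without samples, and the exact rank-sum test were the alternatives.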

Additional observations from a re-analysis of the deposited data

Results flagged for a closer look

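In 90 sets of 5 samples (each group of the 8 members, Sirt1 and the named pathway genes; the other genes named were not checked), 7 held a sample whose gap to the nearest other, divided by the range of the set, passed the 95% critical value of 0.71 in Dixon's test. Chance gives about 1 in 20, or 4.5 sets, and no CDK inhibitor gene was among the 7. Control replicate 2 was highest for Tfdp2 (0.726; 3067 against 1953 to 2258 normalized counts), Trp53i11 (0.899; 5853 against 5332 to 5384) and Rrm2b (0.722; 613 against 487 to 522), and lowest for Cks1b (0.735; 4373 against 4920.1 to 5117). Labelled Sirt1-deleted replicate 12 was highest for Rbx1 (0.858; 5472 against 4064 to 4265) and Cks1b (0.772; 6942 against 5733 to 6009). Labelled Sirt1-deleted replicate 10 was lowest for Bbc3 (0.757; 698 against 923 to 996).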

How the results depend on the processing

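Cdkn1a kept its direction and its call under all 21 alternatives, with log2 differences of 1.80 to 1.94 over all samples and 1.75 to 1.95 without 1 sample, and adjusted p from 6.20e-06 (limma) to 0.0331 (exact rank-sum test). It was the member called in each, and no other member passed in any. The signs of small differences turned: the difference of Cdkn1b to 0.0297 with upper-quartile and 0.0228 with quantile rescaling (leave-one-out -0.0842 to 0.00253), Cdkn3 to 0.0221 with upper-quartile rescaling, and Cdkn2b to -0.20 with quantile rescaling (leave-one-out -0.0606 to 0.357). Likewise the difference of Cdkn1c ranged from -0.22 to 0.01 when 1 sample was left out, turning without control replicate 2 or 4 (0.00635 and 0.00607). Lastly the difference of Cdk2 turned to -0.0101 with sample weights, and from -0.00832 to 0.0229 when 1 sample was left out, below 0 without labelled Sirt1-deleted replicate 12 or control replicate 2 or 4. Cdkn2b had no value at a minimum mean of 50. Of the pathway genes, 50 were called in the main comparison, 44 under each rescaling (26 higher and 18 lower), 39 to 60 when 1 sample was left out, 66 without replicates 10 and 11 together, and 35 by the exact rank-sum test. Over all tested genes the exact rank-sum test called 3659 (1691 higher, 1968 lower) against 5518 by limma. No paired analysis was possible because no replicate number occurs in both groups. edgeR and DESeq2 were not run, since whole reads were not recovered. Depth limits Cdkn2b most, at 7.52 to 26.1 normalized counts.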
